A study of Mus musculus with 19 samples.

Results

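Macrophages are phagocytes of the blood cell lineage, and the genes described here are 10 that such cells, or the microglia of the brain, are known by. They were named as a list (Csf1r, Cx3cr1, Tyrobp, Ptprc, Aif1, C1qa, C1qb, C1qc, Mrc1 and Cd68) and followed through the embryonic mouse lens. All 10 have a probe set of their own on the array, among 18193 genes so represented, and all 10 passed the filter on low signal that left 13320 genes to be tested. Some passed it only in part of the groups: Aif1 exceeded the filter on 7 of 19 arrays, all of them lens, Cd68 on 9, of which 8 were lens, and Ptprc on 10. Aif1 was therefore tested only through the tissue where it is high, and its calls against the body are given as a description and support nothing. The list was chosen with earlier results of these data known.

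RNA came from hand-dissected embryos of wild-type ICR mice, with the day of the plug counted as E0.5, and each sample was read on 1 Affymetrix expression array. Lens was taken on 3 consecutive days, E10.5 to E12.5, with 3 arrays per day, and is set against whole embryo of the same span of days (4 arrays, called the lens-series body below). Tooth germ came from E13.5 (3 arrays) and is set against whole embryo spanning E11.5 to E13.5 (3 arrays, the tooth-series body). The body arrays span several days, so they are no stage-matched control of any 1 lens stage. No label tells if replicates are separate litters or pools, and p-values therefore describe the spread among these arrays, which may be technical.

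The first macrophages of the mouse embryo arise in the yolk sac and spread through the tissues before the bone marrow forms. CSF1 and IL34 keep them alive through the receptor CSF1R, and the chemokine fractalkine (Cx3cl1) binds CX3CR1 on them. Around the early eye they are known for taking up dying cells where the lens vesicle parts from the surface ectoderm, and later for removing the vessels that feed the lens. The lens itself is an epithelium without blood vessels of its own. In bulk RNA, more macrophages and more of a transcript per macrophage cannot be told apart.

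Levels are log2 signals of the probe set with the highest mean, with the SD between arrays. Differences are log2 with the standard error (SE) of limma's fit over all 19 arrays, and a gene is called at a Benjamini-Hochberg adjusted p under 0.05 over the 13320 genes. Control probe sets with no target in mouse RNA had a 95th percentile of 4.71, used as the background below. Signals of different probe sets are not compared with each other, since each has its own response. Arrays of the same group correlated at 0.964 to 0.995. The signal of the bioB hybridisation control split the 13 lens-series arrays into 6 high ones (9.49 to 11.31) and 7 low ones (7.35 to 8.20), and each set holds arrays of all 4 groups. The sets differed in 18S rRNA signal too, which was 10.25 or more on each high array and 8.88 or less on each low one. The gap between 3′ and 5′ probe sets of Actb was 4.22 to 5.05 in the tooth series and 0.21 to 0.48 in the lens series, so any comparison across the series carries that difference too. Lens marker genes were 8 of 8 higher in lens than in body at each stage, with median differences of 4.20, 4.60 and 4.36 in stage order. Lens replicate 3 of E10.5 stood apart from the other arrays of its stage in other genes: lens markers lay 0.34 above their stage mean on it and mesenchyme markers 0.36, while the 10 macrophage genes averaged -0.10.

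The 3 complement genes sit side by side on chromosome 4, within 18719 bases (chr4:136880126-136898844, GRCm38.p6) that hold only these 3 annotated genes. Their products are the chains of C1q, the molecule that starts the classical complement pathway and tags dying cells. The promoters of C1qb and C1qc are shown because these neighbours were higher together in the lens, and that of Mrc1, the mannose receptor, because it took the opposite course. Each is the RefSeq window of 300 bases around the gene's start, 5′ to 3′ on the gene's strand, and capitals mark GAGGAA or AGGAAGT, letters within the sites bound by PU.1 (gene Spi1), the transcription factor that macrophages need.
C1qb (chr4:136886151-136886450, minus strand): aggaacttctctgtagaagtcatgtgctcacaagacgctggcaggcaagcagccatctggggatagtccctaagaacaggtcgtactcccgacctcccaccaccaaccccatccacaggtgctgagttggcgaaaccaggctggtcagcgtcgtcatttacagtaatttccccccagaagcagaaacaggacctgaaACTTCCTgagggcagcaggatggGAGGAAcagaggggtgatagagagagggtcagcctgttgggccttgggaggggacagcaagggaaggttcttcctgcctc
C1qc (chr4:136892865-136893164, minus strand): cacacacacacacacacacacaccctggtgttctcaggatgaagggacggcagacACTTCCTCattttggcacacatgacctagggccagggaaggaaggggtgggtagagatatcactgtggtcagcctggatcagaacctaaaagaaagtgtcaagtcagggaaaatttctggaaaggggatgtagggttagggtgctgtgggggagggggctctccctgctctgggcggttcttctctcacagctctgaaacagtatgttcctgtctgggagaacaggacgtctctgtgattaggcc
Mrc1 (chr2:14229164-14229463, plus strand): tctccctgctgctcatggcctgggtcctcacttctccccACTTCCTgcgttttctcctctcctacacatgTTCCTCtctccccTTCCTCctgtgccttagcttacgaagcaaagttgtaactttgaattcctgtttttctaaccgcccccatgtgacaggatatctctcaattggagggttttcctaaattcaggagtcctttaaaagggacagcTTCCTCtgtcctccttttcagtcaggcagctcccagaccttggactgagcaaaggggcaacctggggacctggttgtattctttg
On the opposite strand these letters read TTCCTC and ACTTCCT, and the 2 motifs overlap where they form 1 longer run of capitals, as in C1qc. Of the members, 7 had a promoter in the RefSeq table (Ptprc had 2). GAGGAA lay in 6 of the 8 promoters of these genes, and in 28.3% of all 32851 mouse promoters. It was missing from that of Cx3cr1 and from 1 of the 2 of Ptprc. AGGAAGT lay in 5 of the 8, those of 4 genes (C1qb, C1qc, Mrc1 and Ptprc), against 9.35% of all. A match of letters is a description, not a binding site. Spi1 itself, named here after its values were seen, averaged 6.55 ± 0.06, 6.56 ± 0.23 and 6.52 ± 0.38 in lens in stage order (SD, n = 3 per stage), and 6.05 ± 0.22 in the lens-series body (n = 4). It was called higher each time (adjusted p = 0.046, 0.0404 and 0.0481).

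**Figure D1:**
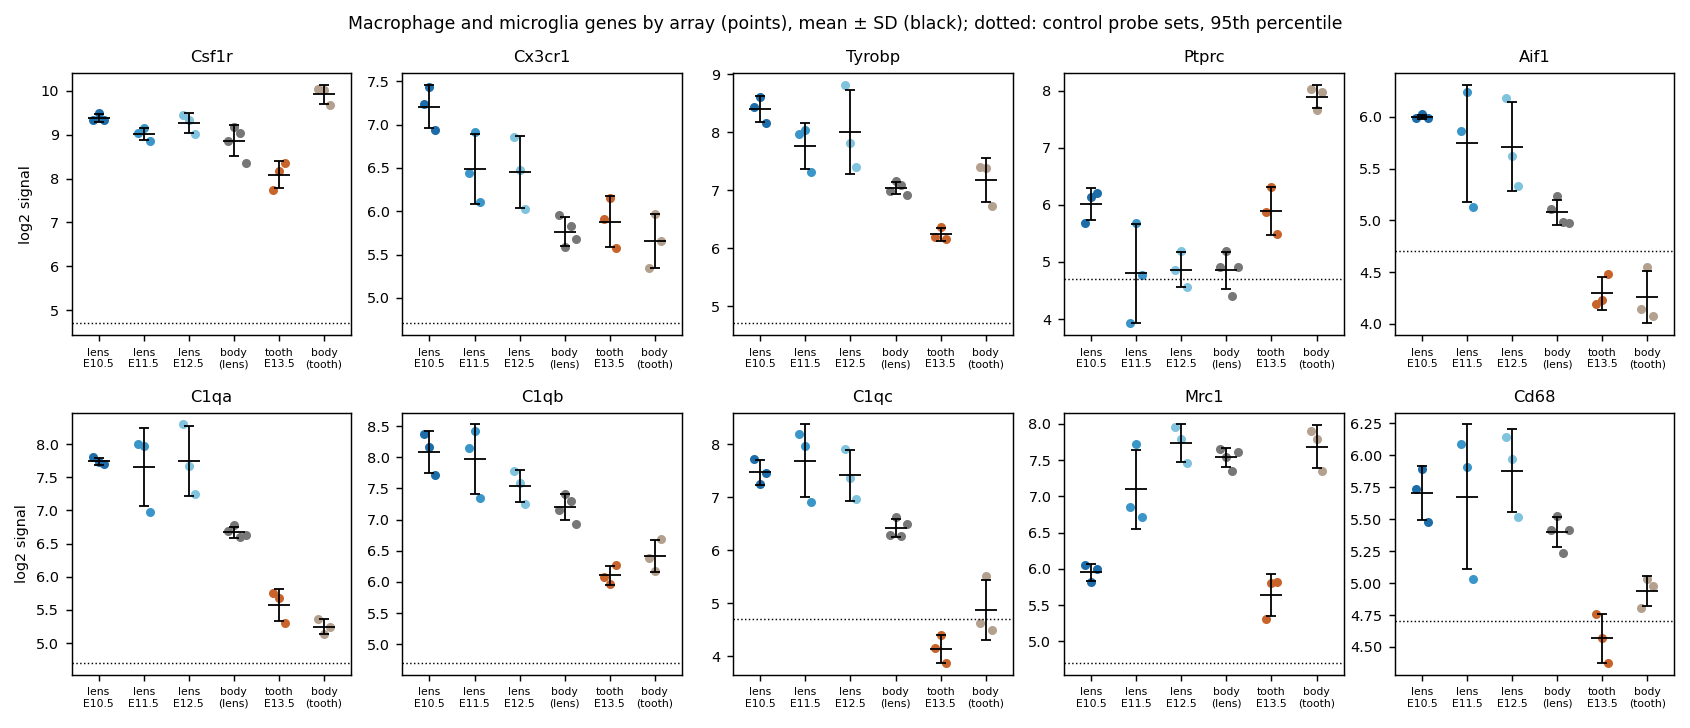
Log2 signal (vertical axis, a separate scale in each panel) of the 10 genes on each of the 19 arrays (points), with the mean and SD of each group in black and the 95th percentile of control probe sets (4.71) as a dotted line where it falls in range. Lens arrays of Cx3cr1, Tyrobp, C1qa and C1qc all lie above the lens-series body arrays, while Mrc1 in E10.5 lens lies below them.

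Lens at E10.5 was set against the body first, the time when the lens pit closes. Of the 10 genes 8 were higher in lens (13.5% of all tested genes were called higher) and 1, Mrc1, was lower (19.1% were called lower). Their median difference was 0.99, against -0.01 for all tested genes. Of these 8, Aif1 passed the filter through lens arrays alone. Cd68 alone was not called. Cx3cr1 and Tyrobp differed most among the 8, by 2.72-fold and 2.57-fold.

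Receptors and their adaptor come first. Cx3cr1, the fractalkine receptor of microglia and other macrophages (chr9:120048683-120068296), read 7.24, 7.44 and 6.94 on the E10.5 lens arrays, against 5.96, 5.58, 5.83 and 5.68 in the body. No body array reached the lowest lens array, and the difference was 1.44 ± 0.22 (adjusted p = 2.9e-05). Tyrobp (chr7:30413782-30417582) encodes DAP12, the membrane adaptor through which TREM2 and related receptors signal. It read 8.44, 8.60 and 8.15 in E10.5 lens, against 6.98, 7.16, 7.09 and 6.92 in the body, again with no overlap (1.36 ± 0.26, adjusted p = 3.3e-04). Csf1r, the receptor on which most macrophages depend for survival (chromosome 18), read 9.32, 9.49 and 9.34 in E10.5 lens, against 8.86, 9.18, 9.04 and 8.36 in the body. These arrays did not overlap either, but the gap was small (0.52 ± 0.19, adjusted p = 0.0361). The call held in 2 of the 7 fits that leave out 1 array, and without body replicate 4, the lowest, the difference was 0.36 (adjusted p = 0.13).

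The cell surface phosphatase CD45, encoded by Ptprc (chr1:138062859-138175756), marks leucocytes. Its signal was 5.69, 6.14 and 6.21 in E10.5 lens and lay near background in the body, at 4.91, 5.19, 4.40 and 4.91. All lens arrays were above all body arrays (1.16 ± 0.30, adjusted p = 0.0055). Aif1 (chr17:35170986-35176083), which encodes the actin-bundling protein IBA1, read 5.99, 6.02 and 5.99 in E10.5 lens, against 5.11, 5.24, 4.99 and 4.98 in the body. The 3 lens arrays were almost equal, and the difference was 0.92 ± 0.22 (adjusted p = 0.00241), in a gene that no body array carried past the filter. Since the body levels of both genes are close to 4.71, the sizes of these differences are uncertain.

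All 3 C1q chains were higher in lens. C1qa (chr4:136895916-136898844) read 7.80, 7.73 and 7.70 in E10.5 lens, against 6.68, 6.79, 6.59 and 6.62 in the body, a difference of 1.07 ± 0.23 (adjusted p = 0.00108). C1qb read 8.38, 8.16 and 7.72 in E10.5 lens, against 7.15, 7.42, 7.29 and 6.93 in the body (0.89 ± 0.22, adjusted p = 0.00403). C1qc read 7.72, 7.25 and 7.45 in E10.5 lens, against 6.28, 6.64, 6.27 and 6.50 in the body (1.05 ± 0.29, adjusted p = 0.00761). None of the 3 overlapped between the groups. Other complement genes did not share this: of 5 tested, 0 were higher and 3 lower, led by Cfb of the alternative pathway (-0.67 ± 0.19).

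Mrc1 went the other way. This receptor (CD206; chr2:14229414-14332023) takes up mannose-rich glycoproteins and marks many tissue macrophages, and sinus endothelium also makes it. It read 6.05, 5.81 and 5.99 in E10.5 lens, against 7.65, 7.54, 7.34 and 7.61 in the body. Every lens array lay below every body array, by 3.0-fold (-1.59 ± 0.21, adjusted p = 6.2e-06). Cd68 (chr11:69664213-69666170), a glycoprotein of macrophage lysosomes, read 5.74, 5.89 and 5.48 in E10.5 lens, against 5.42, 5.52, 5.24 and 5.42 in the body. Those ranges overlap, and the difference of 0.31 ± 0.21 was not called (adjusted p = 0.292). Each bioB set was also fitted together with the tooth-series arrays, which enter the estimate of the spread. Shares of all tested genes called in these fits are not given, so their counts describe only the members' calls. Within the bioB-high arrays 7 members were called higher and 1 lower at E10.5. The bioB-low set holds 1 E10.5 lens array, so its calls are not counted. Mrc1 was lower by -1.51 and -1.64 in the high and the low set.

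**Figure D2:**
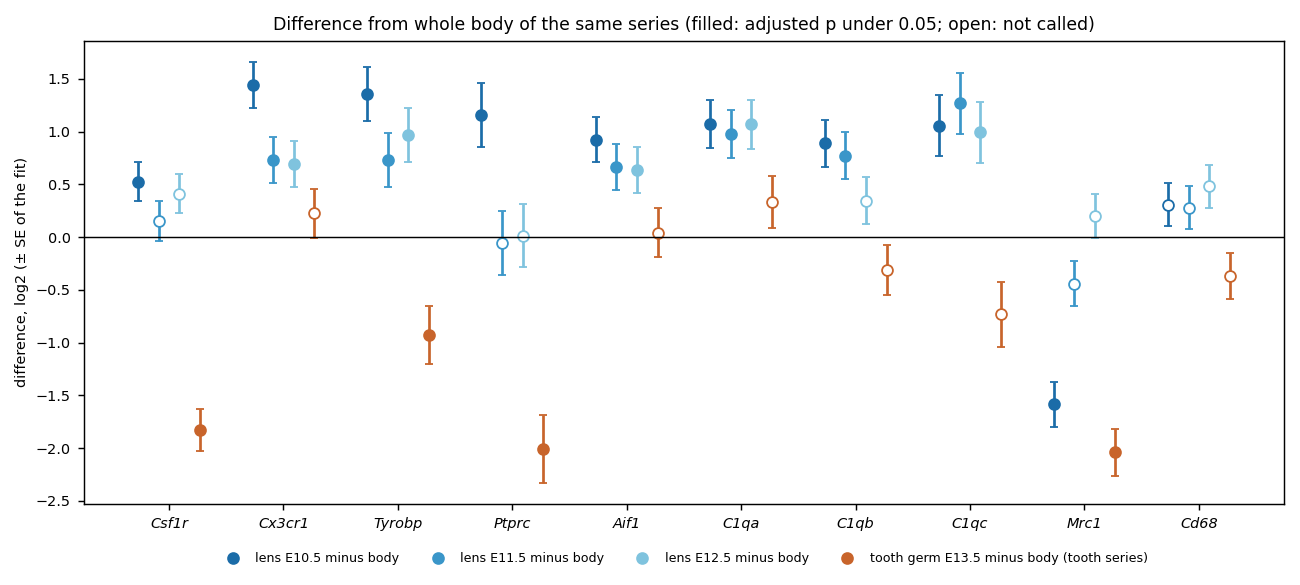
Difference in log2 signal of lens at each of the 3 stages from the lens-series body, and of tooth germ at E13.5 from the tooth-series body (vertical axis), with the SE of the fit, for the 10 genes. Filled points are called at an adjusted p under 0.05. C1qa and C1qc are raised at each lens stage, Mrc1 stands at -1.59 at E10.5 and 0.20 at E12.5, and 4 genes are lower in tooth germ.

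By E11.5 the lens is a closed vesicle, and 6 of the 10 genes were higher than in the body (14.7% of all tested genes were), with 0 lower (22.3% were). The 6 were C1qa, C1qb, C1qc, Tyrobp, Cx3cr1 and Aif1, and the median over the 10 was 0.70, against -0.03 for all tested genes. Among the 6, Aif1 passed the filter through lens arrays alone. C1qc read 8.20, 7.97 and 6.90 in E11.5 lens, above all body arrays and by 2.41-fold (1.27 ± 0.29, adjusted p = 0.0017). C1qa, at 8.0, 7.98 and 6.98, exceeded the body by 0.98 ± 0.23 (adjusted p = 0.00217). Both also had no overlap with the body, and both were called whichever array was left out. C1qb read 8.14, 8.42 and 7.34, and its lowest array fell inside the body range (0.77 ± 0.22, adjusted p = 0.0102).

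The other calls at E11.5 depended on single arrays. Cx3cr1, at 6.45, 6.91 and 6.11, exceeded the body by 0.73 ± 0.22 (adjusted p = 0.0129), and Tyrobp, at 7.96, 8.03 and 7.31, by 0.73 ± 0.26 (adjusted p = 0.0315). The lens arrays of both genes stayed clear of the body. Aif1, at 5.86, 6.24 and 5.13, did not, and its difference was 0.67 ± 0.22 (adjusted p = 0.021). Without replicate 2 the differences of Cx3cr1, Tyrobp, Aif1 and C1qb were 0.51, 0.60, 0.42 and 0.55, none of them called, and 3 members were called: C1qa and C1qc higher and Mrc1 lower (-0.75, adjusted p = 0.00421). Over the 7 fits that leave out 1 array, Tyrobp kept its call in 3, Aif1 in 5, and Cx3cr1 and C1qb in 6. Without replicate 3 Cd68, which also passed the filter only because of lens arrays, was called too, at 0.60 (adjusted p = 0.0133).

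The remaining 4 genes did not pass at E11.5. Csf1r read 9.02, 9.15 and 8.86, a difference from the body of 0.15 ± 0.19 (adjusted p = 0.565). Ptprc was the most scattered member, at 3.94, 5.68 and 4.78, so that 1 array lay below background and another above all body arrays. Cd68 read 6.09, 5.91 and 5.03 (0.28 ± 0.21, adjusted p = 0.321). Mrc1 read 6.85, 7.72 and 6.72, of which 1 array exceeded the whole body range and the others lay below it (-0.44 ± 0.21, adjusted p = 0.114). Within the bioB-low arrays 4 members were called higher at E11.5 and 0 lower. The bioB-high set holds 1 E11.5 lens array, so its calls are not counted.

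At E12.5, when the first fibre cells elongate, 5 of the 10 genes were higher than in the body (16.6% of all tested genes were called higher) and 0 lower (26.7% were). The median over the 10 was 0.56, against -0.05 for all tested genes. C1qa differed most, at 8.30, 7.67 and 7.25 with all arrays above the body (1.07 ± 0.23, adjusted p = 7.9e-04). C1qc, at 7.91, 7.37 and 6.96, exceeded the body by 0.99 ± 0.29 (adjusted p = 0.00858). Tyrobp read 8.81, 7.82 and 7.39, the widest spread of any group for this gene, and was 0.97 ± 0.26 above the body (adjusted p = 0.0045). Cx3cr1, at 6.86, 6.48 and 6.03, and Aif1, at 6.18, 5.62 and 5.34, were above all body arrays as well (0.69 ± 0.22 and 0.64 ± 0.22, adjusted p = 0.0143 and 0.0231). Among the 5, Aif1 passed the filter through lens arrays alone.

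C1qb was the complement chain that missed the threshold at E12.5. Its main probe set read 7.78, 7.59 and 7.25 and overlapped the body (0.34 ± 0.22, adjusted p = 0.231), although 1417063_at put the difference at 0.92 (adjusted p = 0.00221) and 1437726_x_at at 0.61 (adjusted p = 0.0975). Csf1r, at 9.46, 9.33 and 9.02, differed by 0.41 ± 0.19 (adjusted p = 0.0825), and Cd68, at 6.14, 5.97 and 5.52, by 0.48 ± 0.21 (adjusted p = 0.0673). Ptprc, at 4.85, 5.19 and 4.56, was back among the body values near background (0.01 ± 0.30, adjusted p = 0.977). Mrc1 read 7.96, 7.80 and 7.46, which overlapped the body (0.20 ± 0.21, adjusted p = 0.478).

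The highest array, replicate 1, carried part of the E12.5 calls. Without it Cx3cr1, Aif1 and C1qc fell short of the threshold, at 0.49, 0.40 and 0.75, and 2 members (Tyrobp and C1qa) were called. Within the bioB-high arrays replicate 1 is the only E12.5 lens array, so calls are not counted there. Within the bioB-low arrays, which hold the other 2, C1qa alone was called, at 0.81 (adjusted p = 0.0258). With each array centred on its median, the share of higher calls among all called genes was 52.4% at E12.5 (38.4% without centring), and 7 members were higher and 0 lower. At E11.5 that share was 53.1% with centring (39.7% without), and 6 members were higher and 0 lower.

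Change with stage was then followed within the lens, later stage minus earlier. The members did not move as a block, and Mrc1 differed most of the 10. Between E12.5 and E10.5, 1 member (Mrc1) was higher (8.91% of all tested genes were) and 2 (Cx3cr1 and Ptprc) were lower (13.2% were), with a median over the 10 of -0.20 and over all tested genes of -0.01. Mrc1 was at 7.74 ± 0.26 at E12.5, against 5.95 ± 0.12 at E10.5 (SD, n = 3 each), with no overlap, a 3.45-fold difference (1.79 ± 0.23, adjusted p = 1.1e-05). It kept its call with any array left out, and within the bioB-high and bioB-low arrays the difference was 2.03 and 1.64, with 1 E12.5 array in the high set and 1 E10.5 array in the low set.

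Cx3cr1 fell to 6.46 ± 0.42 at E12.5, against 7.21 ± 0.25 at E10.5 (-0.75 ± 0.23, adjusted p = 0.0258), and Ptprc to 4.87 ± 0.31, against 6.01 ± 0.28 (-1.15 ± 0.32, adjusted p = 0.0143). In both genes the arrays of the stages did not overlap. The call of Cx3cr1 held in 2 of the 6 fits that leave out 1 array, and that of Ptprc in 4 of 6. C1qa was the flattest member, with a difference of -0.00 ± 0.24 between E12.5 and E10.5, and C1qc stood at -0.06 ± 0.31. Tyrobp (-0.39 ± 0.27), C1qb (-0.55 ± 0.24), Aif1 (-0.29 ± 0.23), Csf1r (-0.11 ± 0.20) and Cd68 (0.17 ± 0.22) were not called. Without E12.5 replicate 1, the highest array for Tyrobp, its difference was -0.79 and was called (adjusted p = 0.0208).

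Between E11.5 and E10.5, 1 member was higher (1.52% of all tested genes were) and 1 lower (2.74% were), with a median of -0.19 against -0.00 for all tested genes. Mrc1 was up by 1.15 ± 0.23 (adjusted p = 0.00537), a call that held with any array left out but not when only these 6 arrays were fitted (adjusted p = 0.153). Ptprc was down by -1.21 ± 0.32 (adjusted p = 0.0373), which held in 1 of the 6 fits that leave out 1 array and was -0.78 without E11.5 replicate 1 (adjusted p = 0.13). Cx3cr1 (-0.72 ± 0.23, adjusted p = 0.1), Tyrobp (-0.63 ± 0.27, adjusted p = 0.244) and Csf1r (-0.37 ± 0.20, adjusted p = 0.368) missed the threshold, although their arrays did not overlap. Between E12.5 and E11.5, limma called 0 members in either direction (3.02% of all tested genes were higher and 3.45% lower), the median was 0.08, against -0.03 for all tested genes, and 1 member, Mrc1, had an unadjusted p under 0.05 (0.64 ± 0.23, adjusted p = 0.11). With the replicate number as a block, 0 were called as well. Without E11.5 replicate 2 that difference was 0.95 (adjusted p = 0.0061).

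The separate arrays tell more than the means. At E10.5 the members' mean deviation from the stage mean was within 0.10 on each array. At E11.5 all 10 genes of replicate 3 lay below their stage mean, on average by -0.47, and all 10 of replicate 2 above it, by 0.41. At E12.5 all 10 of replicate 3 lay below (-0.38) and 9 of replicate 1 above (0.36), the exception being Ptprc. Over all 13320 tested genes the mean deviation of these 4 arrays was 0.02, 0.09, -0.03 and -0.01. The shares of all tested genes above or below the stage mean are not given, so the counts of members only describe these arrays.

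The shift was shared by some other lists and not by others. On E11.5 replicate 3 the leucocyte genes were at -0.22 (10 of 13 below the stage mean), the endothelial genes at -0.12 (10 of 11 below), the lens genes at 0.01 and the mesenchyme genes at -0.05. On E11.5 replicate 2 the leucocyte genes were at 0.19, the endothelial genes at 0.24 and the Mrc1-group genes at 0.37. On E12.5 replicate 3 the leucocyte genes were at -0.19 and the mesenchyme genes at -0.28. Both arrays numbered 3 belong to the bioB-low set. So does E11.5 replicate 2, on which every member lay above its stage mean. The part that these levels play in the members' differences was not tested.

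**Figure D3:**
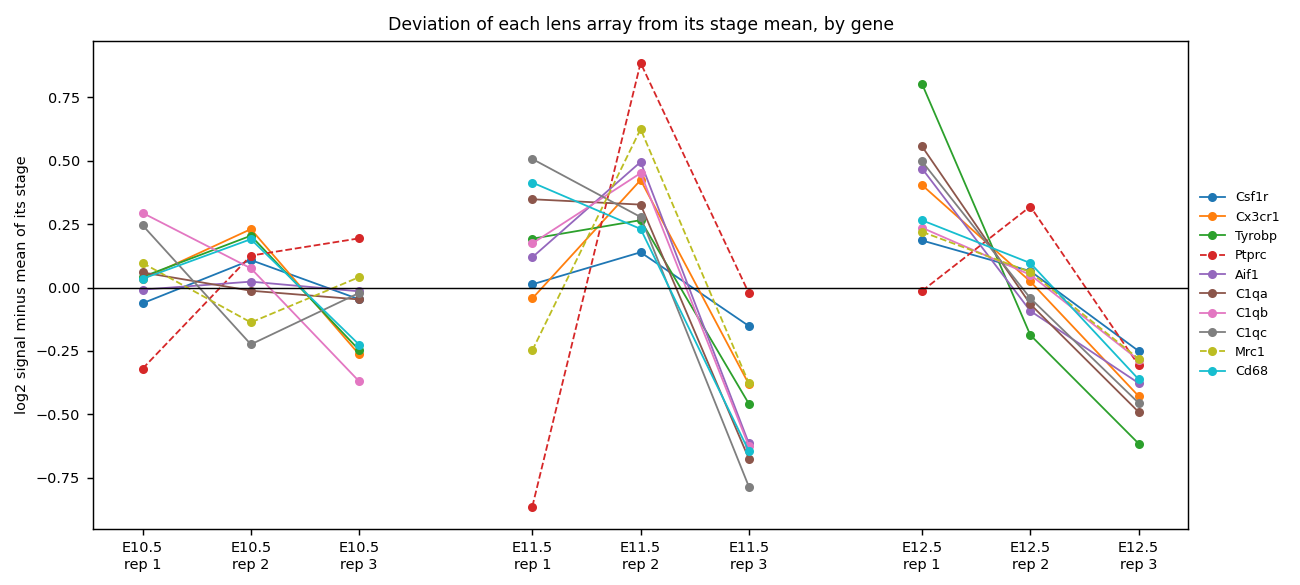
Deviation of each gene's log2 signal from the mean of its stage (vertical axis) on the 9 lens arrays, 1 line per gene, with Ptprc and Mrc1 dashed. The lines span less at E10.5 than at E11.5. All 10 genes lie below 0 on replicate 3 of E11.5 and of E12.5.

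How the genes varied together can be described by correlation, with the caution that the arrays share their series and hybridisation set. Over all 45 pairs of members the median Pearson r was 0.80 over the 9 lens arrays after the stage means were removed (range -0.10 to 0.96). Among Cx3cr1, Tyrobp, Aif1, C1qa, C1qb, C1qc and Cd68, the 21 pairs had a median of 0.86, with a range of 0.68 to 0.96. This subset leaves out Csf1r, Mrc1 and Ptprc, whose pairs had the lowest medians over the 19 arrays (0.30, 0.12 and -0.46). Its higher median is therefore partly built in. Pairs with Csf1r had a median of 0.80 within stages. Mrc1 followed the others within a stage (median 0.67 over 9 pairs) but not across the 13 lens-series arrays, stages and body included (median -0.33). Ptprc was the loosest member, at a median of 0.15 within stages.

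The genes whose pattern was most like the mean of the 10 members over all 19 arrays were Anapc16 (r = 0.94), Cd53, a leucocyte tetraspanin (0.94), 1110032A03Rik (0.93), Lcp1, which encodes the leucocyte actin bundler L-plastin (0.93), Rab7, a GTPase of late endosomes (0.92), Ctsh, a lysosomal protease (0.92), Ostf1 (0.92), Slc16a6 (0.92), Lamtor2 (0.92) and Ccdc86 (0.92). Since the 19 arrays include the gap between the series, the ranking was repeated over the 13 lens-series arrays, a choice made after the values were seen. Cd53 then came first (0.95), ahead of Ctsh (0.95), Nedd8 (0.94), Rrp36 (0.92) and Pycard (0.92). Of the members themselves, Aif1 was most like C1qa (0.96) and Cd68 most like C1qc (0.93) over the 19 arrays. The other 8 were each most like a gene outside the list: Csf1r like Psmd6 (0.96), Cx3cr1 like Cgn (0.89), Tyrobp like Slc16a6 (0.95), Ptprc like Rbm48 (0.96), C1qa like Atp6v1f (0.97), C1qb like Acp6 (0.95), C1qc like Pus1 (0.97) and Mrc1 like Slc38a5 (0.93).

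Several members have more than 1 probe set, and these did not all give the same answer. For Csf1r, 1419873_s_at put lens above body at the 3 stages by 0.69, 0.61 and 0.73 (adjusted p = 0.0104, 0.02 and 0.0049), where the main set 1419872_at was called at E10.5 only. The third set, 1423593_a_at, gave 0.40, 0.39 and 0.35, none called. For Cx3cr1, 1450019_at was called at E10.5 (0.77, adjusted p = 0.017) but not later (0.45 and 0.53), and it exceeded background on 11 of 19 arrays. It gave -0.24 between E12.5 and E10.5 (adjusted p = 0.58), so the fall of Cx3cr1 with stage rests on the main set.

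For C1qb, 1417063_at gave 1.41, 1.27 and 0.92 in stage order (adjusted p = 4.8e-05, 1.4e-04 and 0.00221). The remaining set, 1437726_x_at, gave 1.55, 1.34 and 0.61, of which the last was not called (adjusted p = 0.0975). Sets with the suffix _x_at, among them the main one of C1qb, hold probes that can match other transcripts. For Ptprc, 1440165_at stayed under background on all 19 arrays, so it bears on no comparison, and every Ptprc result rests on 1422124_a_at.

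**Figure D4:**
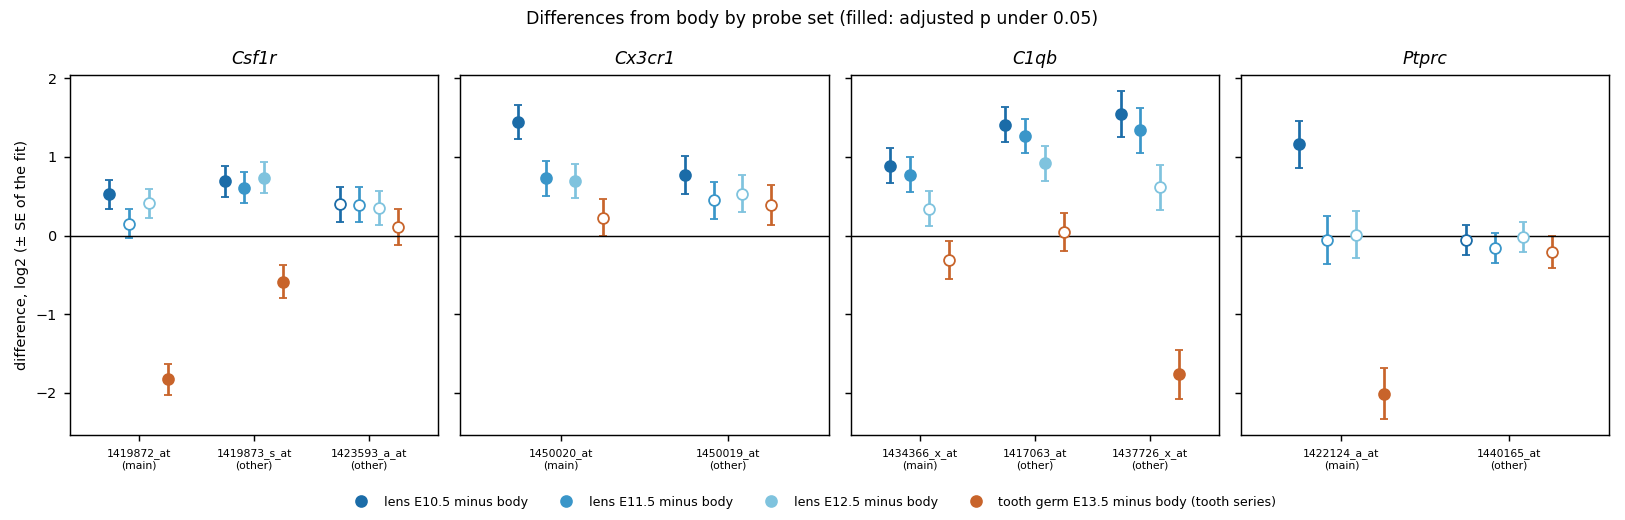
Differences from the body (log2, with the SE of the fit) by every probe set of the 4 genes that have several, for the 3 lens stages and tooth germ. Filled points have an adjusted p under 0.05. For Csf1r in tooth germ the sets run from -1.83 to 0.11. The tooth germ points of 1450019_at, 1417063_at and 1440165_at compare signals under background.

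Ligands of the member receptors were looked at next. Cx3cl1, which encodes fractalkine, was higher in lens than in body at each stage and lower at each later stage. Its lens arrays read 10.51, 10.14 and 10.48 on the first day, 8.95, 9.19 and 9.29 on the next, then 8.41, 8.54 and 8.09, against 5.18, 6.08, 5.79 and 5.70 in the body. The stages do not overlap with each other or with the body. Lens exceeded body by 4.69 ± 0.18, 3.45 ± 0.18 and 2.66 ± 0.18 at the 3 stages (adjusted p = 2.2e-13, 1.3e-11 and 4.8e-10), and E12.5 was lower than E10.5 by -2.03 ± 0.19 (adjusted p = 5.6e-07). Csf1 was not called at any stage (0.39 ± 0.31 at E10.5), and Il34 lay too low to be tested.

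The counts of the wider lists are to be read against the shares of all tested genes given above, 13.5%, 14.7% and 16.6% called higher and 19.1%, 22.3% and 26.7% called lower in stage order. Of 13 leucocyte genes tested, 6, 5 and 4 were higher in lens than in body in stage order, and 0, 1 and 1 lower. Irf8, a transcription factor of the macrophage lineage, was higher by 1.70 ± 0.27, 1.60 ± 0.27 and 1.14 ± 0.27. Cd53 was higher by 1.03 ± 0.21, 0.72 ± 0.21 and 0.64 ± 0.21, and Lcp1 by 0.88 ± 0.19, 1.11 ± 0.19 and 0.83 ± 0.19. Cd52, a small leucocyte surface glycoprotein, was raised at E10.5 (1.67 ± 0.20) and was lower at E12.5 than at E10.5 by -1.39 ± 0.21, beside Coro1a, an actin-binding protein of leucocytes (-1.34 ± 0.26). Those were the only 2 of the 13 leucocyte genes called between E12.5 and E10.5. In that comparison 13.2% of all tested genes were called lower, so this count is near the share of all genes.

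Macrophage surface and Fc receptors gave 6, 6 and 5 of 15 higher in stage order, with 0 lower at any stage. Ly86, a partner of a Toll-like receptor homologue, was higher by 1.64 ± 0.18, 0.98 ± 0.18 and 0.82 ± 0.18. Clec7a, the beta-glucan receptor dectin-1, was higher by 1.26 ± 0.17, 0.59 ± 0.17 and 0.82 ± 0.17. Mpeg1, a pore-forming protein of phagocytes, was higher by 0.95 ± 0.15, 0.89 ± 0.15 and 0.56 ± 0.15. Of the classical markers, Adgre1, named after its values were seen, was not called (-0.083, 0.018 and 0.38), and Itgam (CD11b), also named after its values were seen, stayed under background on all 19 arrays.

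Among 8 microglia-enriched genes tested, 2, 1 and 4 were higher at the 3 stages and 1 lower at each, of which the count at E11.5 is near the share of all tested genes. The lower one was Tmem119 (-2.35 ± 0.25, -1.78 ± 0.25 and -2.42 ± 0.25), a microglial marker that bone-forming cells also make. Fcrls, an Fc receptor-like gene of microglia, was higher on the later days (0.74 ± 0.17 and 0.79 ± 0.17). Lysosome and protease genes were higher for 4, 4 and 5 of 15 and lower for 1, 1 and 0. Lgmn, the endosomal protease legumain, led with 1.39 ± 0.19, 1.02 ± 0.19 and 1.14 ± 0.19, and Ctss, a cathepsin of antigen-presenting cells, was higher by 1.13 ± 0.22, 1.18 ± 0.22 and 0.92 ± 0.22. Of 5 antigen presentation genes, Cd74 alone was tested, and it was not called at any stage (-0.12, 0.09 and 0.12).

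The genes grouped with Mrc1, markers of fetal tissue macrophages, included several that were also higher at E12.5 than at E10.5. Between E12.5 and E10.5, 4 of 8 were higher and 0 lower (8.91% and 13.2% of all tested genes were). Lyve1, a hyaluronan receptor of such macrophages and of lymphatic vessels, read 6.77, 6.67 and 5.78 at E12.5, against 3.52, 3.17 and 3.58 at E10.5, where it was under background. It was called higher (adjusted p = 1.0e-04), but no size is given, since its E10.5 level was not measured. At E11.5 it was high on replicate 2 (6.02) and under background on the others (3.77 and 3.86), and replicate 2 was also the array highest for Mrc1. F13a1, a coagulation factor chain made by macrophages, was up by 1.66 ± 0.31, Stab1, a scavenger receptor, by 1.42 ± 0.18, and Ms4a7 by 0.62 ± 0.14. Between E12.5 and E11.5, Lyve1, again with no size, and Stab1 (0.99 ± 0.18) were higher. Against the body the list had 1, 2 and 3 higher and 4, 4 and 2 lower in stage order. The one higher at each stage was Maf, which is also a lens transcription factor (3.50 ± 0.14, 3.38 ± 0.14 and 3.79 ± 0.14).

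**Figure D5:**
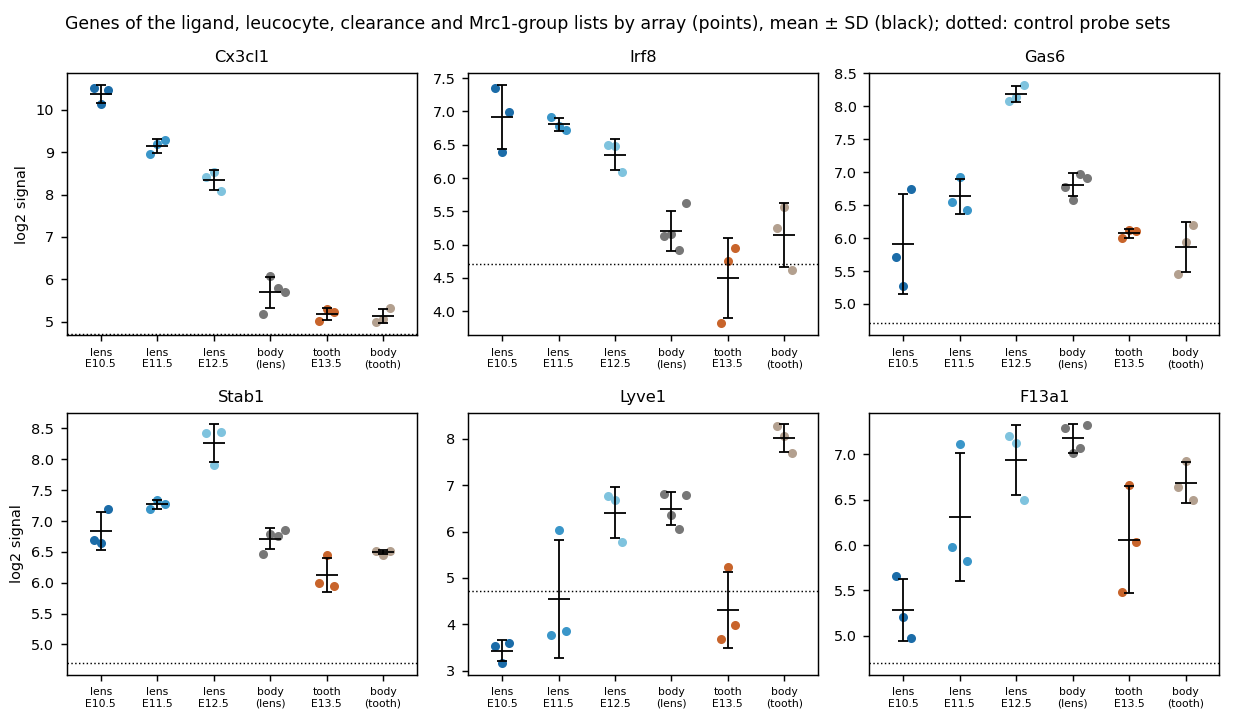
Log2 signal (vertical axis, a separate scale in each panel) of Cx3cl1, Irf8, Gas6, Stab1, Lyve1 and F13a1 by array (points), with the mean and SD of each group in black and the control probe sets as a dotted line. Cx3cl1 steps down with lens stage. Gas6, Stab1, Lyve1 and F13a1 have their highest lens mean at E12.5.

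Genes for the clearance of dying cells were mixed: of 10, 2, 2 and 3 exceeded the body in stage order and 6, 4 and 5 were lower. Mfge8, which bridges phagocytes to dying cells, was higher by 1.09 ± 0.12, 0.81 ± 0.12 and 0.93 ± 0.12. Axl, a receptor for such bridging proteins, was lower at each stage (-2.94 ± 0.21, -2.01 ± 0.21 and -2.13 ± 0.21). Its ligand Gas6 read 8.08, 8.15 and 8.32 at E12.5, against 5.72, 5.27 and 6.75 at E10.5, and was higher by 2.27 ± 0.27 (adjusted p = 5.0e-06).

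Markers of other cells that a dissected lens could carry were counted as well. Endothelial genes were lower in lens for 5, 3 and 4 of 11 at the 3 stages with 0 higher, and their summed signal was 1527 to 1843, 1602 to 2085 and 1715 to 1907 in lens, against 2127 to 2315 in the body. Between E12.5 and E10.5, 1 of 11 was higher (8.91% of all tested genes were), Tek, the angiopoietin receptor (1.43 ± 0.38). Granulocyte and mast cell genes were lower for 4 of 5 at each stage, S100a8 being under background on every lens array, and 5, 5 and 4 of the 8 genes on the array under background in all lens arrays of the 3 stages. Megakaryocyte and platelet genes were lower for 4, 3 and 4 of 5, and 3 of 5 were higher at E11.5 than at E10.5, Ppbp by 2.25 ± 0.30. Erythroid genes were lower for 6, 3 and 5 of 6, and the list's summed signal was 20017 to 42307 over the 9 lens arrays, against 46560 to 52670 in the body. Neither of the lymphocyte genes tested was called at any stage (Cd3e at 0.0055, 0.11 and 0.059).

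Mesenchyme genes were lower for 7, 6 and 7 of 8 and higher for 1, 1 and 0, with Postn at -5.80 ± 0.20 at E10.5. Between E12.5 and E10.5, 5 of 8 were higher and 2 lower, Dcn by 2.10 ± 0.26 and Col1a2 by 1.99 ± 0.22 being higher, in the same direction as Mrc1. Genes of pigment cells were higher in lens for 3 of 3 at each stage, with Pmel at 0.78 ± 0.16, 2.48 ± 0.16 and 0.99 ± 0.16, and genes of neural retina progenitors for 3 of 5 with 2 lower. The part of these tissues in the members' differences was not tested.

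Tooth germ at E13.5, a tissue of oral epithelium and mesenchyme, served as the second organ. Of the 10 genes 4 were lower than in the tooth-series body (25.3% of all tested genes were called lower) and 0 higher (16.6% were). The median over the 10 was -0.55, against -0.04 for all tested genes. Mrc1 read 5.31, 5.80 and 5.81 in tooth germ, against 7.91, 7.79 and 7.34 in the body (-2.04 ± 0.23, adjusted p = 7.6e-07). Ptprc read 5.87, 6.32 and 5.48 in tooth germ, against 8.04, 7.67 and 7.99 in the body (-2.01 ± 0.32, adjusted p = 6.1e-05). Csf1r read 7.74, 8.18 and 8.34 in tooth germ, against 10.05, 10.02 and 9.67 in the body (-1.83 ± 0.20, adjusted p = 6.1e-07). In all of these the groups did not overlap.

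Csf1r in tooth germ depended on the probe set. 1419873_s_at put it at -0.59 (adjusted p = 0.0311) and 1423593_a_at at 0.11 (adjusted p = 0.735). Tyrobp read 6.19, 6.37 and 6.16 in tooth germ, against 7.40, 7.39 and 6.73 in the body (-0.93 ± 0.27, adjusted p = 0.0103). All 4 calls held with any array of the tooth series left out. With each array centred on its median they stood as well, while the share of higher calls among all called genes was 54.7% (39.6% without centring).

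The other 6 members were not called in tooth germ by their main probe sets. Cx3cr1 read 5.91, 6.16 and 5.58 in tooth germ, against 5.34, 5.96 and 5.66 in the body (0.23 ± 0.23), and C1qa read 5.75, 5.68 and 5.30, against 5.36, 5.14 and 5.25 (0.33 ± 0.24). C1qb read 6.08, 5.97 and 6.27 in tooth germ, against 6.39, 6.17 and 6.69 in the body (-0.31 ± 0.24). By 1437726_x_at C1qb was called lower (adjusted p = 1.5e-04), at 4.04, 4.25 and 4.25 in tooth germ, which is under background, against 5.74, 6.04 and 6.05 in the body. By 1417063_at it was under background in both groups. Aif1 lay under background in both groups, at 4.19, 4.22 and 4.48 in tooth germ, against 4.15, 4.55 and 4.08 in the body. C1qc was under background in tooth germ (4.15, 4.41 and 3.88) and on 2 of 3 body arrays (4.62, 5.52 and 4.49; -0.73 ± 0.31, adjusted p = 0.064). Cd68 read 4.76, 4.57 and 4.38 in tooth germ, against 4.80, 5.03 and 4.98 in the body, with no overlap and no call (-0.37 ± 0.22, adjusted p = 0.191).

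The counts of the wider lists in tooth germ are to be read against the 16.6% of all tested genes called higher and the 25.3% called lower. Leucocyte genes were lower for 4 of 13 with 0 higher, led by Laptm5, a lysosomal protein of blood cells (-3.33 ± 0.29). Macrophage surface receptors were lower for 7 of 15 and higher for 2, with Fcgr3 at -1.86 ± 0.25. The genes grouped with Mrc1 were lower for 3 of 8 and higher for 0, among them Lyve1, which was under background on 2 of 3 tooth germ arrays. Lysosome genes were lower for 5 of 15 and higher for 2, with Ctss at -2.26 ± 0.23, and the ligands gave 0 calls among 2 (Cx3cl1 at 0.06 ± 0.19).

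Whether the difference from the body is itself different in lens and tooth germ was tested by subtracting the tooth difference from the lens difference. At E10.5, 7 of the 10 genes were called (34.4% of all tested genes were), all of them higher in lens relative to its body. They were Ptprc (3.17 ± 0.44), Csf1r (2.35 ± 0.27), Tyrobp (2.29 ± 0.38), C1qc (1.79 ± 0.42), Cx3cr1 (1.22 ± 0.32), C1qb (1.20 ± 0.33) and Aif1 (0.89 ± 0.32). At E12.5, 6 were called (39.6% of all tested genes were), Mrc1 (2.24 ± 0.31), Csf1r (2.24 ± 0.27), Ptprc (2.02 ± 0.44), Tyrobp (1.90 ± 0.38), C1qc (1.73 ± 0.42) and Cd68 (0.85 ± 0.30). The Csf1r values rest on its main probe set: by 1419873_s_at they were 1.27 and 1.32, both called, and by 1423593_a_at 0.29 and 0.24, neither called. By 1450019_at that of Cx3cr1 was 0.37 and not called (adjusted p = 0.437), but this set was under background on all tooth-series arrays and bears on nothing there. C1qb, not called at E12.5 by its main set, was called by 1437726_x_at (adjusted p = 1.9e-04), which was under background in tooth germ, and by 1417063_at (adjusted p = 0.0388), which was under background in both tooth groups, so its value compares nothing. Aif1 lay under background in both tooth groups, and C1qc in tooth germ and on 2 of 3 body arrays, so their tooth difference was not measured and their values here compare nothing between the organs. Cd68 in tooth germ was under background on 2 of 3 arrays, and it passed the filter only because of lens arrays, so its call supports nothing. Ptprc averaged 6.01 in E10.5 lens, 4.87 in E12.5 lens and 5.89 in tooth germ. It averaged 4.85 in the lens-series body and 7.90 in the tooth-series body. Its values here therefore hold the gap between the bodies. Its levels in E12.5 lens and in the lens-series body lie near background.

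The bodies of the series, which cover different days, differed from each other as well, so a low value in 1 series is no fixed point. Tooth-series body was higher than lens-series body for 2 members (31.8% of all tested genes were called higher), Ptprc (3.05 ± 0.30) and Csf1r (1.06 ± 0.19), and lower for 4 (31.8% were called lower), C1qc (-1.55 ± 0.29), C1qa (-1.42 ± 0.23), Aif1 (-0.82 ± 0.22) and C1qb (-0.78 ± 0.22). The median over the 10 was -0.29, against -0.00 for all tested genes. For Csf1r the sign turned by 1423593_a_at (-1.22, adjusted p = 8.2e-05), and 1419873_s_at gave 0.01 (adjusted p = 0.981). C1qb was called lower by 1417063_at (adjusted p = 2.1e-09) and was not called by 1437726_x_at (-0.24, adjusted p = 0.481). Cx3cr1, not called by its main set, was called lower by 1450019_at (adjusted p = 0.0023). In the tooth-series body Aif1, 1417063_at and 1450019_at lay under background, as did 2 of 3 arrays of C1qc, so the sizes of these differences are not measured. Age of the embryos, the series and the gap between 3′ and 5′ signal cannot be told apart in these values.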

How the data were processed

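Expression was measured on 19 Affymetrix arrays of mouse embryonic lens, tooth germ and whole body. The authors deposited linear intensity values, 1 per probe set and array, and the submitters' processing notes name RMA and affy 0.7 without saying what each did. Log2 was taken and nothing else was normalized. Of 45101 probe sets, 34945 name 1 gene, 932 several and 9160 none; 34741 matched RefSeq GRCm38.p6 by Entrez ID. The probe set with the highest mean stood for a gene (18193), and genes above 5.46 (44.1 linear, the median of all values) on at least 3 arrays were tested (13320). Array medians were 42.5 to 46.5, and no 2 arrays shared more than 2.04% of values.

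The limma package (3.58.1, in R 4.3.3) fitted 1 mean per group over all arrays, with eBayes, two-sided tests and Benjamini-Hochberg adjustment over all tested genes. The code was tested on simulated data. Over all groups replicate numbers did not pair the samples: of 45 correlations between deviations of arrays with the same number, 9 exceeded 0.1 (range -0.53 to 0.64). Of the 9 between lens stages 7 did, including all 3 between E11.5 and E12.5 (0.40 to 0.64). Some arrays with different numbers reached such values too, as E11.5 replicate 3 with lens-series body replicate 1 (0.55), while others were negative. Whether the numbers pair the samples of these stages was not settled.

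The members and lists were chosen with earlier results of these data known. All members are named in each comparison; from other lists, up to 4 called genes with the largest difference, or 2 where none is called, and the genes most like the members. Alternatives covered the probe set rule, filters, an added constant of 32, normalization, blocks, arrays fitted and array weights. Promoters are RefSeq's.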

Additional observations from a re-analysis of the deposited data

Results flagged for a closer look

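The difference of lens from its body and the difference of tooth germ from its own body were themselves different for 7 members at E10.5 and 6 at E12.5, by the interaction term of limma's fit (adjusted p under 0.05). At E10.5 the lens difference exceeded that of tooth germ by 3.17 for Ptprc (adjusted p = 1.9e-05), 2.35 for Csf1r (adjusted p = 1.9e-06), 2.29 for Tyrobp (adjusted p = 1.0e-04), 1.79 for C1qc, 1.22 for Cx3cr1, 1.20 for C1qb and 0.89 for Aif1. At E12.5 it exceeded it by 2.24 for Mrc1 (adjusted p = 1.2e-05), 2.24 for Csf1r (adjusted p = 2.7e-06), 2.02 for Ptprc, 1.90 for Tyrobp, 1.73 for C1qc and 0.85 for Cd68. The calls of Aif1 (adjusted p = 0.0374) and Cd68 (adjusted p = 0.0313) held in 4 and 6 of the 13 fits that leave out 1 array. Aif1 lay under background in both tooth groups, and C1qc in tooth germ and on 2 of 3 tooth-series body arrays, so their tooth differences were not measured and these values compare nothing between the organs. Cd68 was under background on 2 of 3 tooth germ arrays and passed the filter only because of lens arrays, so its call supports nothing. The values of Ptprc hold the gap between the bodies, where the tooth-series body was higher by 3.05. E10.5 lens averaged 6.01 and tooth germ 5.89 for this gene. The values of Csf1r rest on its main probe set. By 1419873_s_at they were 1.27 and 1.32, both called, and by 1423593_a_at 0.29 and 0.24, neither called. They also hold a gap between the bodies, tooth-series minus lens-series. For Csf1r that gap was 1.06 by the main set, 0.01 by 1419873_s_at and -1.22 by 1423593_a_at. No array of the lens-series body, the 1 group large enough, passed Dixon's 95% criterion (its gap to the nearest array over the whole range) for any member, although leaving out its lowest array for Csf1r, replicate 4 at 8.36, ended the call of that gene at E10.5.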

How the results depend on the processing

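Against the body, leaving out 1 array gave 8 to 9 members called at E10.5, 3 to 7 at E11.5, 2 to 6 at E12.5 and 4 to 5 in tooth germ. Between stages the ranges were 1 to 3 (E11.5 and E10.5), 0 to 1 (E12.5 and E11.5) and 1 to 4 (E12.5 and E10.5); between the bodies 6 in each case, and for lens against tooth differences 6 to 7 (E10.5) and 5 to 7 (E12.5). With the replicate number as a block, 8, 6 and 6 members were called against the body at the 3 stages and 5 in tooth germ; it ended the call of Csf1r at E10.5 (0.36), added Cd68 at E12.5 and between the bodies and C1qc in tooth germ, and moved no count by over 1.5 times. A fit with that block and only the 6 arrays compared was added after seeing the data. It called 0 members for E12.5 against E11.5, the stages whose same-numbered arrays all correlated above 0.1. It called 0 for E11.5 against E10.5 and 4 for E12.5 against E10.5, the added one being C1qb (-0.55).

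For E11.5 against E10.5 the count of 2 became 1 under quantile normalization and in a fit of the lens series alone (added after seeing the data). It became 0 with only the arrays compared and 9 with array weights. The shares of all tested genes called in the refits of this section are not given. The counts therefore show only how the members' calls moved, and do not set the members apart from other genes. Array weights, whose fit stopped before converging and gave E11.5 replicate 3 a weight of 19.5, also gave 3 members at E11.5 against body (Cd68 then at -0.34), 4 for E12.5 against E11.5 and 5 for E12.5 against E10.5. Median centring gave 1 for E12.5 against E11.5 and, in tooth germ, a share of higher calls among all called genes of 54.7% against 39.6%. A filter at log2 above 7 gave 3 of 7 tested members at E12.5 against body. Within the bioB-low set, fitted with the tooth-series arrays, 1 member was called at E12.5 against body. Directions turned with the probe set for Csf1r (1423593_a_at: 0.11 in tooth germ, -1.22 between bodies; mean of its sets: -0.053 between bodies) and for Ptprc by the set under background (-0.055 at E10.5 against body, 0.037 for E12.5 against E10.5, -0.075 between bodies). Beyond these, single genes stayed called or stayed not called in 1915 refits, gained a call in 64 and lost it in 94. Among the 1915, differences that were not called could change sign. The cause of these changes was not tested. Depth is not defined for arrays; signals near 4.71 limit Ptprc, Aif1, Cd68 and C1qc.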
